A study of Homo sapiens with 9 samples.

Results

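The genes of the cytosolic ribosomal proteins were followed in RNA-seq of HCT116, an established human colorectal carcinoma line, with A20 unedited, targeted or, as taken here, expressed again. The members were the protein-coding genes whose symbol is RPL or RPS with a number and at most an ending A or X, together with RPLP0, RPLP1, RPLP2 and RPSA. This rule took 77 of the 58735 genes in the table, 46 of the large subunit and 31 of the small subunit, and used no measured value. There were 3 libraries in each of 3 groups. A20-WT cells were not edited. A20-KO cells had received a lentiviral CRISPR vector with a guide against TNFAIP3, the gene of A20, and puromycin selection, and the sources used here do not say whether they were 1 clone. The labels name the third group only A20-OE, and it was taken to be the rescued cells that the paper sequenced. Those were A20-KO cells in which A20 was expressed again, so they carry the same editing as the A20-KO cells. The sources name a CMV-driven vector for Flag-tagged A20 and do not say whether it made these cells. A20 is a ubiquitin-editing enzyme best known for limiting NF-kB signalling.

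Each ribosomal protein occupies its own place in the large or the small subunit, and the subunits are assembled in the nucleolus from roughly equal numbers of each protein and ribosomal RNA. Proteins made in excess are degraded. The mRNAs are among the most abundant in growing cells, and many begin with a C followed by an unbroken run of pyrimidines, the terminal oligopyrimidine (TOP) start. LARP1 and the mTOR kinase set how strongly mRNAs with this start are translated. Amounts of mRNA therefore do not give amounts of protein.

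The TOP start is the sequence feature that joins these genes, so the annotated starts of members described below are shown. Of the 77 members, 62 matched the RefSeq promoter table (GRCh38.p14). Their starts were read for a C at the first transcribed base followed directly by at least 4 bases that are C or T, on the strand of the gene. It was found at the start of 42 of these 62 members (67.7%) and of 1429 of all 35116 promoters (4.07%). Each window below holds 12 bases before the start and 18 from it, 5′ to 3′ on the strand of the gene, with the pyrimidine run in capitals.
RPS27: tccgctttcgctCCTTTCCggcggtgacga
RPL31: atccttcgcgctCTTCCTTTCCaacttgga
RPS18: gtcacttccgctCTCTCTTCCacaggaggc
RPS6: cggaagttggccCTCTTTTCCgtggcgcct
RPL41: aacttcgcctttCTCTCggccttagcgcca
RPL36A: gcctcgcggtttCTTTCTTTCCgcgccgat
RPL11: ctcctggcccataaggccctcggccggaag
RPL9: cgtaatgacgacagacgttctttctttgct

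The windows lie at chr1:153990750-153990779 (plus strand) for RPS27, chr2:101002277-101002306 (plus) for RPL31, chr6:33272063-33272092 (plus) for RPS18 and chr9:19380219-19380248 (minus) for RPS6. They lie at chr12:56116621-56116650 (plus) for RPL41, chrX:101390999-101391028 (plus) for RPL36A, chr1:23691767-23691796 (plus) for RPL11 and chr4:39458905-39458934 (minus) for RPL9. The first 6 hold the run at the annotated base. RPL11 and RPL9 do not hold it there, and are shown as members without the motif at this position. A match describes the annotated start and not the start used in these cells.

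The table holds FPKM, fragments scaled to gene length and library size, from which whole reads could be recovered, between 23406222 and 24963691 per library. A log2 fold change below is a difference of group means of log2(FPKM + 0.1), with its standard error (SE), and is too small for genes at low FPKM. A gene passed the test at a Benjamini-Hochberg adjusted p under 0.05 from limma over the 21636 genes tested, at any size of change. All 77 members were tested, with 50 to 99345 reads per member and library. No source says that the 3 libraries of a group came from separate cultures, so p-values measure only the spread between these libraries, which may be technical. TNFAIP3 mRNA went against the A20-KO label, with 0.869, 0.80 and 0.736 FPKM in A20-WT, 1.93, 2.16 and 1.04 FPKM in those labelled A20-KO, and 58.7, 66.5 and 56.5 FPKM in A20-OE. Every A20-OE library was far above the A20-WT libraries, so that group is not a return to the A20-WT level of this mRNA. The guide acts on the gene and an edited mRNA can persist, so mRNA alone does not check the loss of the protein. The paper shows A20 expression of its knockout and rescued cells in a figure, whose values were not available here. Every direction below that involves A20-KO is that of the libraries labelled so. Epithelial markers were at 1092 to 1472 summed FPKM in A20-WT, 1696 to 2241 in A20-KO and 1687 to 2231 in A20-OE, 6 of the 7 were measurable, and VIL1 was near 0. The leukocyte markers summed to at most 0.174 FPKM and the endothelial ones to at most 0.337 FPKM. Of 3 fibroblast markers only COL1A1 was measurable, at 4.6 to 5.84 summed FPKM in A20-WT, 12.5 to 15.0 in A20-KO and 11 to 12.3 in A20-OE, with COL1A2 and PDGFRB near 0. The part of other cells in the results was not tested beyond these levels.

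The 77 members together took a larger part of the reads in A20-OE and in those labelled A20-KO than in A20-WT. These shares were 5.30%, 5.56% and 5.97% in A20-WT, 7.02%, 6.74% and 8.47% in A20-KO, and 7.70%, 6.98% and 8.21% in A20-OE. All 6 edited libraries lay above the 3 A20-WT libraries, and the A20-KO and A20-OE ranges overlapped. The means were 5.61% ± 0.336 (SD, n = 3), 7.41% ± 0.931 (SD, n = 3) and 7.63% ± 0.619 (SD, n = 3). The library numbered 3 was the highest of its group for 49 members in A20-WT, 70 in A20-KO and 69 in A20-OE. How many of all genes were highest in that library is not given here, so these counts have no background. FPKM summed over all genes was also highest in the library numbered 3 of each group. Whether the pattern belongs to the members or to the libraries as a whole was therefore not tested. An exact permutation test of 3 libraries against 3 cannot give p under 0.1. The share of the genes of the mitochondrial genome moved as well, with 7.52% to 10.1% in A20-WT, 9.18% to 11.9% in A20-KO and 12% to 14.0% in A20-OE. Of the reads outside the mitochondrial genome the members took 5.90% to 6.45%, 7.50% to 9.61% and 7.93% to 9.54%, again without overlap between A20-WT and either other group. With FPKM scaled to those reads, 25 members passed in A20-KO against A20-WT, where 16 did as deposited. The share of all genes that passed with this scaling is not given here.

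**Figure D1:**
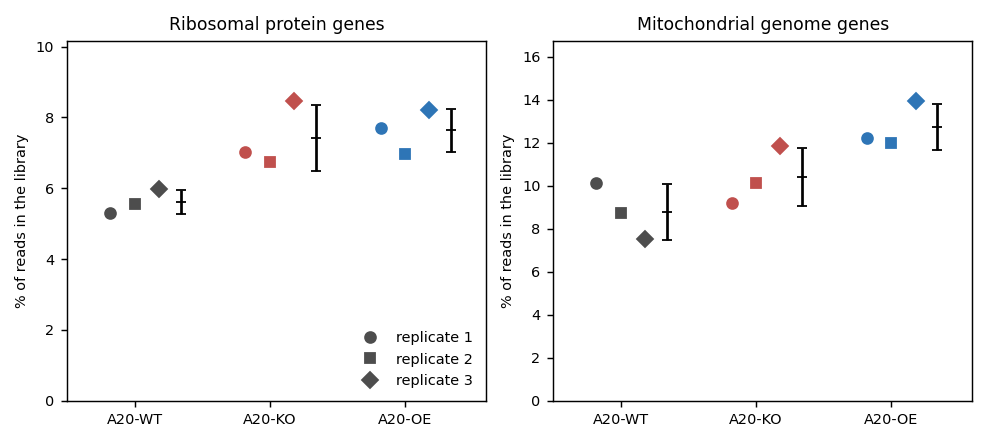
Share of all reads, in percent, taken by the 77 ribosomal protein genes (left) and by the genes of the mitochondrial genome (right) in each library, with symbols for replicates 1 to 3 and the mean and SD of each group in black. The 3 A20-WT libraries sit at 5.30% to 5.97% on the left, below the other 6 libraries, which sit at 6.74% to 8.47%.

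Levels differed widely between members. Averaged over the 9 libraries, 60 of the 77 members were at 100 FPKM or more, the median was 259 FPKM, and 4 members were under 10 FPKM. RPS2, a small subunit protein near the mRNA entry, was the highest, at 971, 1112 and 1301 FPKM in A20-WT, 1394, 1268 and 1766 in A20-KO, and 1417, 1247 and 1537 in A20-OE. RPS12 followed with 831, 1142 and 1225 FPKM, then 1152, 1028 and 1535, then 1363, 1229 and 1459 in the same order of groups. Their ranges overlapped in every group, so the order of these 2 members is not separated by the libraries. RPL13A, RPL8 and RPLP0 were next, with means over the 9 libraries of 1054, 911 and 768 FPKM. Among the 4 lowest were RPS10 (1.87 FPKM), RPL36A (3.04 FPKM) and RPL17 (8.94 FPKM).

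Levels per length have to be read with the length the authors used. For all 77 members the length in the table equals the union of the annotated exons of the gene, which was a median of 2.73 times the length of the principal transcript and ran from 1.06 to 14.5 times. The longer this union, the lower the FPKM for the same reads. Reads shared with other genes also bear on the lowest members. RPS10 shares 39.4% of its exonic bases with the read-through gene RPS10-NUDT3, RPL17 shares 24.8% with RPL17-C18orf32, and RPL36A shares 8.4% with RPL36A-HNRNPH2. How reads in shared exons were assigned is not given in the sources used here, so the levels of these 3 members are uncertain. RPL10 overlaps DNASE1L1 on the opposite strand, and the sources do not say whether counting used strand. The table also lists 1137 pseudogenes of the members, whose reads came to 4.03% to 4.73% of the members' own reads per library. This share was above 10% in 9 members. Among them were RPS10 (58.7%), RPS28 (50.9%), RPL9 (42.7%), RPS2 (34.0%), RPL39 (29.1%), RPS7 (19%), RPL7 (17.0%) and RPL26 (10.4%). The values of the 9 members are uncertain by an amount that the share does not set. Members with a lower share were not shown to be free of this.

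The first comparison asked how the mRNAs of the ribosome differed between cells targeted for A20 and unedited cells. In the libraries labelled A20-KO, 15 members rose and 1 fell, while 61 did not pass. Over all genes tested 22.3% passed, 11.3% as higher and 11% as lower. The median log2 fold change of the members was 0.385, against -0.005 over all genes, and 72 of the 77 members were above 0. In 40 members every A20-KO library lay above every A20-WT library, where 19.3% of all genes did so, and in 2 members every A20-KO library lay below, where 18.9% of all genes did so. The changes were small, and 0 members passed with a log2 fold change above 1 (4.91% of all genes did so as higher), while limma gave an unadjusted p under 0.05 for 37 members and limma-voom on the recovered reads passed 33 at any size. The shares of all genes for the unadjusted and the limma-voom count are not given here, so those counts have no background.

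The calls depended on single libraries. Without A20-KO 3, the library with the highest share of ribosomal protein reads, 7 members passed in place of 16 and the median log2 fold change was 0.248. Without A20-WT 2, A20-KO 1 or A20-OE 1, the number was 8, 10 and 10. In each of the 9 fits that left out 1 library 5 members passed, among them RPL31, RPL37, RPL37A and RPS27.

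**Figure D2:**
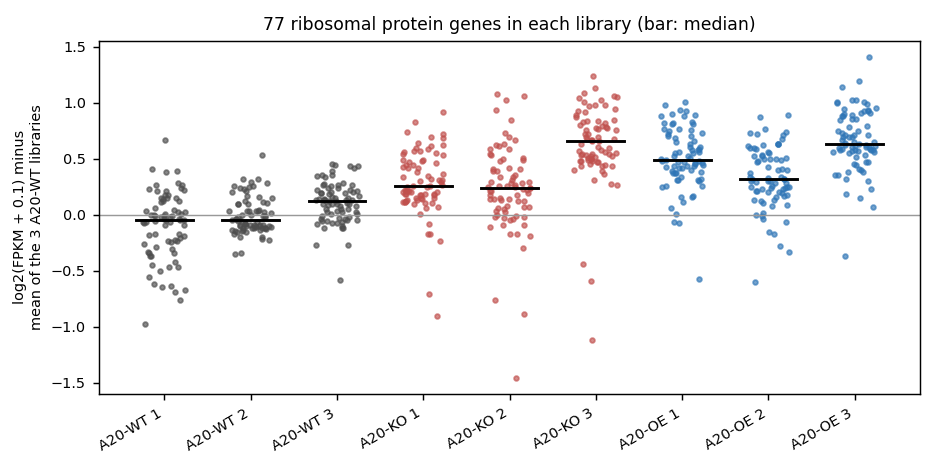
Each point is 1 of the 77 genes in 1 library, as log2(FPKM + 0.1) minus the mean of the 3 A20-WT libraries for that gene, with the median of the 77 as a bar. The medians were -0.05, -0.05 and 0.12 in A20-WT, 0.25, 0.24 and 0.66 in A20-KO, and 0.49, 0.32 and 0.63 in A20-OE.

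RPL37 had the largest rise. This large subunit gene (ENSG00000145592) occupies chromosome 5 of GRCh38, 40825262 to 40835335, minus strand. It was at 22.2, 31.0 and 31.8 FPKM in A20-WT, 49.8, 58.4 and 58.2 FPKM in A20-KO, and 56.5, 47.7 and 50.6 FPKM in A20-OE. All A20-KO and A20-OE libraries lay above all A20-WT libraries, and the A20-KO and A20-OE values overlapped. The log2 fold change from A20-WT to A20-KO was 0.98 (SE 0.15, adjusted p = 0.0022 from limma), and that to A20-OE was 0.88 (SE 0.15, adjusted p = 0.0021 from limma).

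RPS27, a zinc-binding small subunit protein, lies on the plus strand of chromosome 1 from 153990755 to 153992155, and its TOP start is shown above. It was at 314, 271 and 281 FPKM in A20-WT, 465, 608 and 612 FPKM in A20-KO, and 546, 535 and 766 FPKM in A20-OE. The lowest edited library was above the highest A20-WT library. The log2 fold change was 0.95 (SE 0.18, adjusted p = 0.0059 from limma) in A20-KO and 1.08 (SE 0.18, adjusted p = 0.0019 from limma) in A20-OE, in each case against A20-WT. RPL31, which sits near the exit of the peptide tunnel, was at 60.7, 67.1 and 61.0 FPKM in A20-WT, 98.0, 89.4 and 123 FPKM in A20-KO, and 116, 103 and 125 FPKM in A20-OE. Its groups did not overlap between A20-WT and either of the others, with log2 fold changes of 0.71 (SE 0.13, adjusted p = 0.006) in A20-KO and 0.86 (SE 0.13, adjusted p = 0.0014) in A20-OE from limma. RPL37A was at 62.9, 61.5 and 73.8 FPKM in A20-WT, 92.7, 126 and 114 FPKM in A20-KO, and 104, 82.4 and 114 FPKM in A20-OE. It rose by 0.74 in A20-KO and by 0.59 in A20-OE on the log2 scale, and the A20-OE call was lost without A20-WT 2, A20-OE 1 or A20-OE 3.

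The other large subunit members that rose in A20-KO were RPL3, RPL11, RPL13A, RPL15, RPL30, RPL35A and RPL39. RPL13A, known also for a role outside the ribosome in silencing inflammatory mRNAs, was at 697, 651 and 773 FPKM in A20-WT and 1138, 1076 and 1387 FPKM in A20-KO, with 1236, 1092 and 1435 FPKM in A20-OE. Its log2 fold change in A20-KO was 0.76 (SE 0.17, adjusted p = 0.013 from limma), a call lost without A20-WT 2 (adjusted p = 0.052). RPL3, which lies beside the peptidyl transferase centre, was at 401, 384 and 450 FPKM in A20-WT, 627, 573 and 736 FPKM in A20-KO, and 726, 681 and 823 FPKM in A20-OE, with a log2 fold change in A20-KO of 0.64 (SE 0.15, adjusted p = 0.013 from limma), also lost without A20-WT 2 (adjusted p = 0.053). The calls of RPL11, RPL15, RPL30, RPL35A and RPL39 in A20-KO were lost in 3 to 8 of the 9 fits that left out 1 library.

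The small subunit members that rose in A20-KO were RPS27, RPS6, RPS14, RPS18 and RPS25. RPS6, the substrate of the S6 kinases that lie below mTOR, was at 288, 279 and 292 FPKM in A20-WT, 400, 404 and 515 FPKM in A20-KO, and 460, 407 and 546 FPKM in A20-OE. Every edited library was above every A20-WT library, and the 3 A20-WT libraries were close together. The log2 fold change was 0.61 (SE 0.15, adjusted p = 0.019 from limma) in A20-KO, lost without A20-WT 2 or A20-KO 3, and 0.71 (SE 0.15, adjusted p = 0.0066) in A20-OE. RPS18 was at 427, 450 and 463 FPKM in A20-WT, 613, 625 and 777 FPKM in A20-KO, and 792, 715 and 896 FPKM in A20-OE. Its log2 fold change was 0.58 (SE 0.15, adjusted p = 0.021 from limma) in A20-KO, lost without the same 2 libraries, and 0.84 (SE 0.15, adjusted p = 0.0025) in A20-OE. RPS14 and RPS25 stood just inside the threshold, with adjusted p-values of 0.049 and 0.0498 from limma, and each lost its call in 8 of the 9 fits that left out 1 library.

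RPS10 had the lowest log2 fold change, -0.86 (SE 0.28), without passing (adjusted p = 0.058 from limma), on 198, 116 and 80 reads in A20-WT, 71, 69 and 50 reads in A20-KO, and 116, 146 and 119 reads in A20-OE. The A20-KO libraries lay below the others, and A20-WT 1 was at 203% of the mean of A20-WT 2 and 3. RPL17 and RPL36A were also below 0 without passing, at -0.36 (SE 0.38) and -0.32 (SE 0.16). RPS10, RPL17 and RPL36A, each below 0, were thus also among the 4 members with the lowest FPKM, and each shares exonic bases with a read-through gene. RPS26 followed, at -0.03 (SE 0.17).

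**Figure D3:**
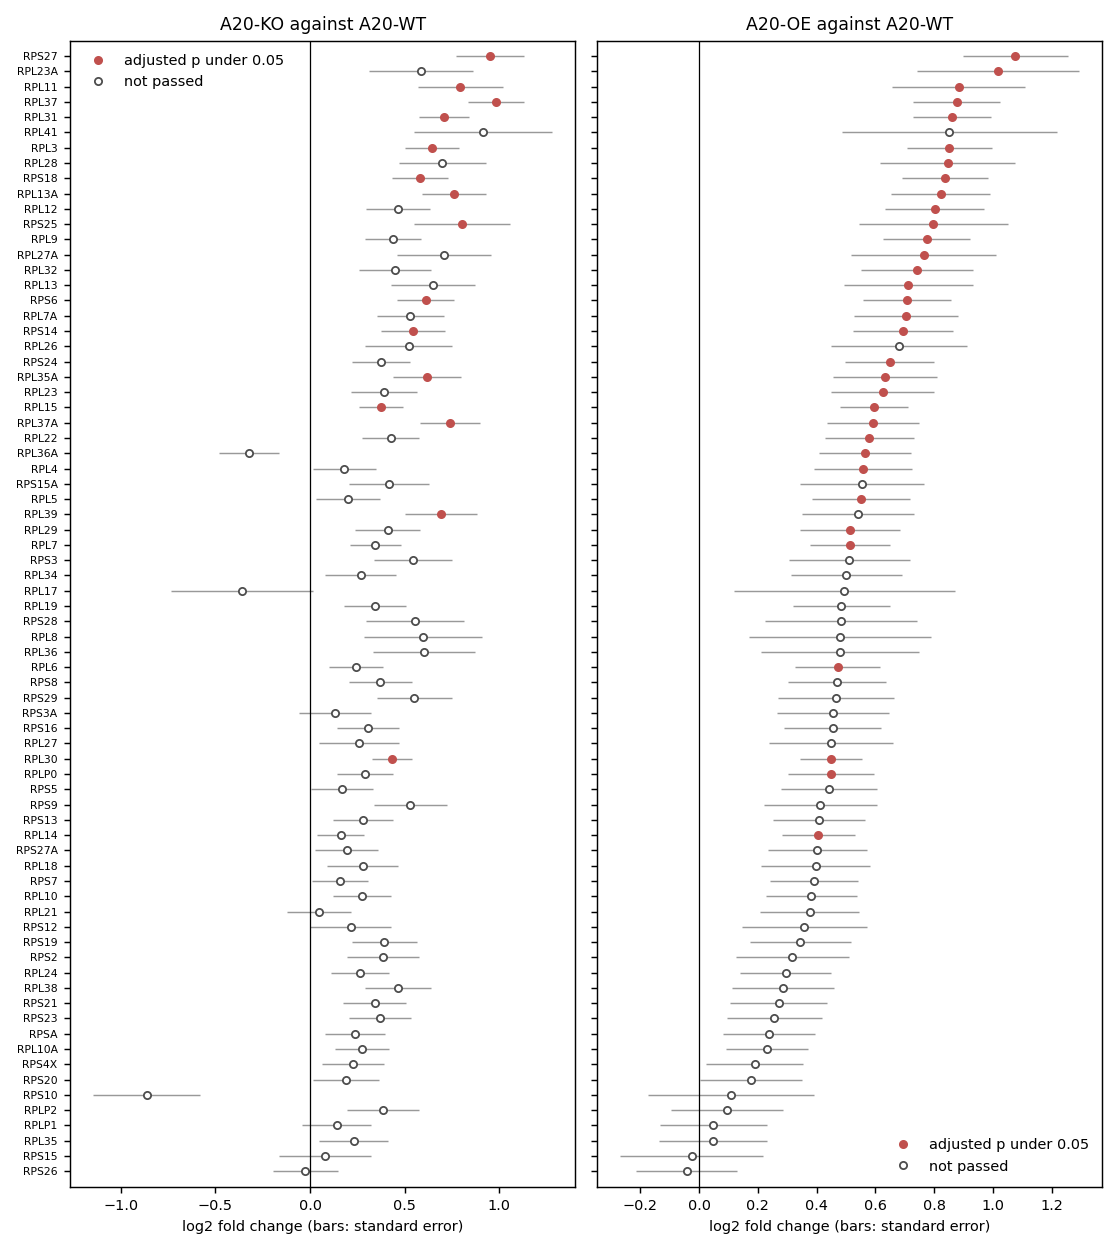
Log2 fold change of 74 of the 77 genes against A20-WT for A20-KO (left) and A20-OE (right), with standard errors, ordered by the right panel. Filled points passed at an adjusted p under 0.05, 15 on the left and 33 on the right, all above 0. The panels share the A20-WT libraries, so their likeness is not independent.

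A20-WT 1 stood apart among the members. Across the 77 genes its log2 values correlated with the other libraries at r = 0.954 to 0.969, while the other 8 correlated with each other at r = 0.982 to 0.999 (a description across genes, which are not replicates). In A20-WT 1, 20 members were under 75% of the mean of A20-WT 2 and 3 and 5 were over 133%. RPL41, the shortest ribosomal protein, was the most extreme, at 214 FPKM against 609 and 569 FPKM in A20-WT 2 and 3. It was at 795, 630 and 989 FPKM in A20-KO and 779, 691 and 808 FPKM in A20-OE. Its log2 fold change in A20-KO was 0.91 (SE 0.37) with an adjusted p of 0.11 from limma, and was 0.43 without A20-WT 1. RPS25 went from 0.80 to 0.48 and RPL8 from 0.60 to 0.22 in the same way. Over all members the A20-KO median was 0.343 without A20-WT 1, with 13 members past the threshold.

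**Figure D4:**
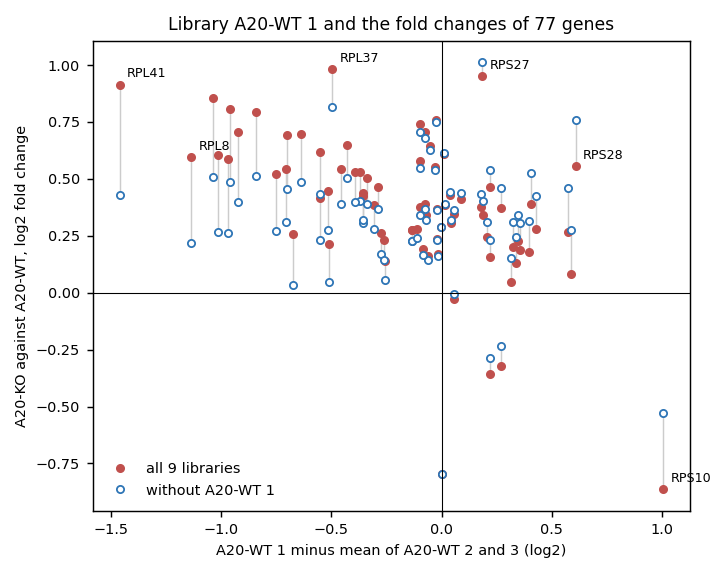
For each of the 77 genes, the log2 difference between A20-WT 1 and the mean of A20-WT 2 and 3 (x axis) against the log2 fold change of A20-KO over A20-WT (y axis), with all 9 libraries (filled) and without A20-WT 1 (open). RPL41 moves from 0.91 to 0.43, and without that library RPS27 and RPL37 are at 1.01 and 0.81.

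The second comparison asked how these mRNAs differed between the A20-OE and the A20-KO cells. The labels name no vector control, so A20 cannot be told apart from the other steps that made the A20-OE cells. Between A20-OE and the libraries labelled A20-KO, RPL36A rose, 0 members fell in limma, and 76 did not pass. Over all genes 8.97% passed, 4.43% as higher and 4.54% as lower, and 1.56% passed as higher with a log2 fold change above 1, where 0 members did. The median log2 fold change of the members was 0.118, against 0.013 over all genes, with 51 members above 0. In 4 members the A20-OE libraries lay above all A20-KO libraries (17.4% of all genes) and in 0 below (18% of all genes). The median SE of a member was 0.171, 5 members had an unadjusted p under 0.05, and limma-voom passed 2 members as higher and 0 as lower. Shares of all genes for the unadjusted and the limma-voom counts are not given here. The median was 0.010 without A20-OE 3, 0.246 without A20-KO 3, 0.203 without A20-OE 2, 0.0494 without A20-KO 1 and 0.0417 without A20-KO 2, so its size rested on which library was in the fit.

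RPL36A (ENSG00000241343) lies on the plus strand of chromosome X from 101390824 to 101396154 and encodes a large subunit protein at the exit site of the transfer RNA. It was at 3.13, 2.95 and 2.26 FPKM in A20-WT, 2.33, 2.23 and 2.0 FPKM in A20-KO, and 4.70, 4.19 and 3.55 FPKM in A20-OE. The A20-OE libraries were above all others, and A20-WT and A20-KO overlapped. The log2 fold change from A20-KO to A20-OE was 0.89 (SE 0.16, adjusted p = 0.013 from limma), a call lost without A20-OE 1 or A20-OE 2, and that from A20-WT to A20-OE was 0.56 (SE 0.16, adjusted p = 0.024). The read-through gene RPL36A-HNRNPH2 was listed at 0 in all 9 libraries. The other 3 members with A20-OE above all A20-KO libraries were RPS10, RPL17 and RPL4. RPS10 had a log2 fold change of 0.97 (SE 0.28, adjusted p = 0.066) and RPL17 of 0.85 (SE 0.38, adjusted p = 0.19), neither past limma's threshold. RPL17 was at 8.81, 2.90 and 9.78 FPKM in A20-KO against 11.2, 12 and 11.3 FPKM in A20-OE, and its log2 fold change was 0.31 without A20-KO 2. RPL4 was at 344, 329 and 405 FPKM in A20-KO and 443, 415 and 545 FPKM in A20-OE, with a log2 fold change of 0.38 (SE 0.17, adjusted p = 0.19). At the other end stood RPLP2, with -0.29 (SE 0.19, adjusted p = 0.39 from limma). Across the members the log2 fold change of A20-OE over A20-KO and the GC content of the gene had a Spearman correlation of -0.43 over 77 genes that share the same 6 libraries, which is given as a description. For the comparisons with A20-WT it was 0.24 in A20-KO and -0.13 in A20-OE.

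The third comparison set A20-OE against A20-WT, and shares its A20-WT libraries with the first. Here 33 members rose, 1 fell and 43 did not pass, with 31.1% of all genes passing, 15.7% as higher and 15.4% as lower. The median log2 fold change was 0.483, against 0.025 over all genes, and 74 members were above 0. In 52 members the A20-OE libraries lay above every A20-WT library (23.6% of all genes) and in 1 below (21.8% of all genes). Past a log2 fold change of 1 were RPS27 at 1.08 and RPL23A at 1.02, where 7.68% of all genes passed as higher. RPL23A, at the tunnel exit, was at 74.9, 136 and 158 FPKM in A20-WT, 174, 139 and 225 FPKM in A20-KO, and 232, 215 and 269 FPKM in A20-OE. A20-WT 1 was its lowest library, and its adjusted p of 0.021 from limma rose above the threshold without A20-OE 1 or A20-OE 3. Without either of these 2 libraries 14 members passed in place of 34. In all 9 such fits 13 members kept their call, among them RPL3, RPL9, RPL12, RPL13A, RPL15, RPL30, RPL31, RPL37, RPS6, RPS18, RPS24 and RPS27. The other members that rose were RPL4, RPL5, RPL6, RPL7, RPL7A, RPL11, RPL13, RPL14, RPL22, RPL23, RPL23A, RPL27A, RPL28, RPL29, RPL32, RPL35A, RPL36A, RPL37A, RPLP0, RPS14 and RPS25, each of which lost its call without at least 1 library. RPL12 was at 323, 379 and 411 FPKM in A20-WT and 623, 572 and 750 FPKM in A20-OE, a log2 fold change of 0.80 (SE 0.17, adjusted p = 0.0064). RPL9 was at 68.1, 82.4 and 92.5 FPKM in A20-WT and 137, 124 and 153 FPKM in A20-OE, a log2 fold change of 0.77 (SE 0.15, adjusted p = 0.0042). RPS24, one of the Diamond-Blackfan genes, was at 70.2, 75.4 and 74.7 FPKM in A20-WT and 108, 102 and 138 FPKM in A20-OE, a log2 fold change of 0.65 (SE 0.15, adjusted p = 0.011 from limma). RPL15 was at 131, 111 and 121 FPKM in A20-WT and 179, 169 and 199 FPKM in A20-OE, a log2 fold change of 0.60 (SE 0.12, adjusted p = 0.0043). In RPS24, RPL12, RPL9 and RPL15 all A20-OE libraries were above all A20-WT libraries. The members that did not pass ran from -0.04 (RPS26) to 0.85 (RPL41), and in A20-KO from -0.86 (RPS10) to 0.91 (RPL41).

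Of the 16 members that passed in A20-KO, 15 also passed in A20-OE against A20-WT, which is 93.8% of the first list and 44.1% of the second, over the same A20-WT libraries. RPL39 was the exception, with 0.69 (SE 0.19, adjusted p = 0.03) in A20-KO and 0.54 (SE 0.19, adjusted p = 0.058) in A20-OE from limma. Altogether 35 members passed in at least 1 comparison and 42 in none.

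By subunit, 10 of the 46 large subunit members rose in A20-KO and 27 rose in A20-OE against A20-WT, with median log2 fold changes of 0.43 and 0.55. Of the 31 small subunit members, 5 rose and 1 fell in A20-KO, and 6 rose and 1 fell in A20-OE, with medians of 0.37 and 0.41. The shares that rose were 21.7% and 58.7% in the large subunit and 16.1% and 19.4% in the small subunit, where 11.3% and 15.7% of all genes did. With 1 library left out, the large subunit members that rose numbered 5 (without A20-KO 1) to 14 (without A20-WT 3) in A20-KO and 8 (without A20-OE 1) to 28 (without A20-KO 3) in A20-OE, and those of the small subunit 1 (without A20-WT 2) to 8 (without A20-WT 3) and 4 (without A20-OE 3) to 11 (without A20-KO 3). With limma-voom on the recovered reads, 22 large and 9 small subunit members rose in A20-KO, and 34 and 16 rose in A20-OE against A20-WT. The gap between the subunits thus depended on the method, and these counts have no background of all genes here. The difference between the subunits was not tested. The ratio of summed large subunit FPKM to summed small subunit FPKM was 1.15 to 1.28 in A20-WT, 1.27 to 1.33 in A20-KO and 1.31 to 1.35 in A20-OE, and the lowest value was that of A20-WT 1.

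By role, the 5S particle proteins RPL5 and RPL11, which bind 5S ribosomal RNA and, when free, the p53 ligase MDM2, were both higher in A20-OE than in A20-WT. Of all genes, 15.7% rose in that comparison. RPL11 was at 110, 199 and 197 FPKM in A20-WT, 252, 270 and 332 FPKM in A20-KO, and 304, 272 and 328 FPKM in A20-OE. Its log2 fold change was 0.79 (SE 0.23, adjusted p = 0.034) in A20-KO and 0.88 (SE 0.23, adjusted p = 0.016) in A20-OE from limma, and A20-WT 1 was the lowest library. RPL5 was at 278, 224 and 222 FPKM in A20-WT, 270, 232 and 334 FPKM in A20-KO, and 340, 316 and 404 FPKM in A20-OE. It did not pass in A20-KO (0.20, SE 0.17, adjusted p = 0.44) and rose in A20-OE by 0.55 on the log2 scale (SE 0.17, adjusted p = 0.034 from limma), a call lost in 6 of the 9 fits that left out 1 library.

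Of the stalk proteins RPLP0, RPLP1 and RPLP2, which recruit the elongation factors, RPLP0 alone passed, in A20-OE against A20-WT. That was 33.3% of these proteins, where 15.7% of all genes rose. RPLP0, a common reference gene for RT-PCR, was at 640, 589 and 697 FPKM in A20-WT, 725, 745 and 888 FPKM in A20-KO, and 868, 800 and 963 FPKM in A20-OE. The A20-WT libraries were below all others, with log2 fold changes of 0.29 (SE 0.15, adjusted p = 0.2) in A20-KO and 0.45 (SE 0.15, adjusted p = 0.045) in A20-OE from limma, the latter lost in 8 of the 9 fits that left out 1 library. RPLP1 was at 388, 430 and 500 FPKM in A20-WT, 472, 387 and 610 FPKM in A20-KO, and 457, 417 and 484 FPKM in A20-OE, and its groups overlapped throughout. RPLP2 was at 336, 303 and 365 FPKM in A20-WT, 401, 366 and 565 FPKM in A20-KO, and 374, 296 and 411 FPKM in A20-OE, with no comparison past the threshold. Of 7 proteins at the exit tunnel or its rim (RPL17, RPL19, RPL23A, RPL26, RPL31, RPL35 and RPL39), RPL31 and RPL39 rose in A20-KO and RPL23A and RPL31 in A20-OE. This was 28.6% of the list in each, where 11.3% and 15.7% of all genes rose. With 1 library left out the numbers were 1 to 2 in A20-KO and 1 to 4 in A20-OE.

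Some members are known for roles or features of their own. RPS27A, made as a fusion with ubiquitin, was at 217, 222 and 239 FPKM in A20-WT, 248, 212 and 328 FPKM in A20-KO, and 301, 262 and 337 FPKM in A20-OE, and passed in no comparison. RPSA, also known as the laminin receptor, had log2 fold changes against A20-WT of 0.24 in both A20-KO and A20-OE (SE 0.16 each), without passing. RPS4X, which escapes X inactivation in human cells, had 0.23 and 0.19 (SE 0.17 each), without passing. RPL22, frequently mutated in tumours with microsatellite instability, was at 25.9, 34.0 and 32.3 FPKM in A20-WT, 41.6, 33.6 and 49.3 FPKM in A20-KO, and 46.3, 44.0 and 46.5 FPKM in A20-OE. It rose by 0.58 in A20-OE on the log2 scale (SE 0.15, adjusted p = 0.017 from limma), lost without A20-OE 1 or A20-OE 3, and did not pass in A20-KO (0.43, adjusted p = 0.073). RPS26 and RPS15 were the members nearest to 0 in A20-OE against A20-WT, with -0.04 (SE 0.17) and -0.02 (SE 0.24).

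Of the 42 members with the motif at the annotated start, 10 rose in A20-KO and 19 in A20-OE against A20-WT, with median log2 fold changes of 0.42 and 0.51. Of the 20 matched members without it, 3 rose in A20-KO and 8 in A20-OE, with medians of 0.27 and 0.48. The shares that rose were 23.8% and 45.2% with the motif and 15% and 40% without it, where 11.3% and 15.7% of all genes did. This difference was not tested. RPS27, RPL31, RPS18 and RPS6 hold the run in the windows shown above and rose in both A20-KO and A20-OE against A20-WT. RPL41 and RPL36A also hold it. RPL41 passed in neither, and RPL36A rose in A20-OE but not in A20-KO. RPL11 and RPL9 do not hold it there. RPL11 rose in both, and RPL9 rose in A20-OE but not in A20-KO. The windows were chosen after the values were seen.

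Genes beside the members gave a mixed picture. FAU encodes a ubiquitin-like fusion of a further ribosomal protein and passed in no comparison. RACK1, a scaffold on the small subunit, was at 179, 170 and 205 FPKM in A20-WT, 195, 186 and 247 FPKM in A20-KO, and 244, 228 and 285 FPKM in A20-OE. It passed in A20-OE against A20-WT (0.45, SE 0.15, adjusted p = 0.044 from limma), a call lost in 7 of the 9 fits that left out 1 library. Of 8 paralogs of ribosomal protein genes, 6 could be tested. RPL7L1, a nucleolar paralog of RPL7, passed in all 3 comparisons, at 36.4, 31.4 and 29.7 FPKM in A20-WT, 17.0, 16.7 and 15.1 FPKM in A20-KO, and 23.6, 24.6 and 25.3 FPKM in A20-OE. The 3 groups did not overlap, and the log2 fold changes were -0.99 in A20-KO against A20-WT (adjusted p = 0.00038), 0.59 in A20-OE against A20-KO (adjusted p = 0.01) and -0.40 in A20-OE against A20-WT (adjusted p = 0.014) from limma. RPL26L1 fell in A20-OE against A20-WT by 0.83 on the log2 scale (adjusted p = 0.0065). RPL22L1 and RPS27L passed in no comparison.

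Some assembly partners escort single ribosomal proteins to the forming subunit, and others act on these proteins or the subunit in other ways. Of 8 such genes, 6 fell in A20-KO and 0 rose, 5 fell and 0 rose in A20-OE against A20-WT, and 2 fell and 0 rose in A20-OE against A20-KO. The shares that fell were 75%, 62.5% and 25%, where 11%, 15.4% and 4.54% of all genes did. The medians in these comparisons were -0.497, -0.665 and -0.026. GRWD1, the chaperone of RPL3, was at 19, 18.9 and 23.1 FPKM in A20-WT, 10.6, 9.87 and 11.7 FPKM in A20-KO, and 9.31, 10.2 and 9.30 FPKM in A20-OE. It fell by 0.91 in A20-KO (adjusted p = 0.00081) and by 1.07 in A20-OE (adjusted p = 0.00015) on the log2 scale, in limma. RPL3 itself rose in both, as given above. TSR2, the escort of RPS26, was at 18.6, 19.6 and 19.2 FPKM in A20-WT, 14.3, 15.4 and 16.7 FPKM in A20-KO, and 10.3, 9.93 and 10.3 FPKM in A20-OE, falling in each comparison. Its call in A20-KO against A20-WT (adjusted p = 0.031 from limma) was lost in 5 of the 9 fits that left out 1 library. LTV1, PRMT3, BCCIP and HEATR3 also fell in A20-KO, with log2 fold changes of -0.67, -0.61, -0.40 and -0.38. These calls were lost in 2, 0, 3 and 4 of the 9 such fits. The count of 6 in A20-KO was between 2 (without A20-KO 2) and 7 (without A20-WT 1) when 1 library was left out, the A20-OE count against A20-WT between 5 and 6, and that against A20-KO between 1 (without A20-WT 2) and 2.

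Of 41 translation factors 40 could be tested, and EEF1G was listed at 0. In A20-KO 2 rose and 13 fell, with a median log2 fold change of -0.16. In A20-OE against A20-KO 6 rose and 1 fell, with a median of 0.11, and against A20-WT 10 rose and 12 fell, with a median of -0.11. The shares that rose in these comparisons were 5%, 15% and 25%, where 11.3%, 4.43% and 15.7% of all genes did, and those that fell were 32.5%, 2.5% and 30%, where 11%, 4.54% and 15.4% did. EEF1A1, the elongation factor that brings transfer RNA, rose by 0.57 in A20-KO (adjusted p = 0.031, lost in 8 of the 9 fits that left out 1 library) and by 0.87 in A20-OE against A20-WT (adjusted p = 0.003), and EEF2, PABPC1 and TPT1 rose in A20-OE against A20-WT. Of these 3 calls, that of PABPC1 was lost in 6 of the 9 fits that left out 1 library, that of EEF2 without A20-OE 1, and that of TPT1 in 0. EIF4B, a helper of the EIF4A helicase, was at 109, 105 and 108 FPKM in A20-WT, 136, 130 and 125 FPKM in A20-KO, and 186, 188 and 195 FPKM in A20-OE. Its groups did not overlap, and it rose in all 3 comparisons, by 0.28 in A20-KO (adjusted p = 0.043), by 0.54 from A20-KO to A20-OE (adjusted p = 0.0084) and by 0.82 in A20-OE against A20-WT (adjusted p = 0.00016) in limma. The first of these was lost in 7 of the 9 fits that left out 1 library. ABCE1, the ATPase that splits the subunits after termination, fell the furthest, at 46.1, 34.6 and 30.3 FPKM in A20-WT, 10.4, 10.6 and 10.5 FPKM in A20-KO, and 11.4, 11.8 and 11.5 FPKM in A20-OE. Its log2 fold change was -1.78 (SE 0.14, adjusted p = 0.00014) in A20-KO and -1.64 (SE 0.14, adjusted p = 5.6e-05) in A20-OE against A20-WT. Initiation and termination factors followed it in A20-KO, among them EIF4G2 (-0.85), EIF1AX (-0.84), ETF1 (-0.74), EIF2S1 (-0.72), EIF5 (-0.72) and EIF4G1 (-0.58). The call of EIF4G1 was lost without A20-WT 2 or A20-KO 3. Unlike ABCE1, EIF5 rose again from A20-KO to A20-OE (adjusted p = 0.025 from limma), a call lost in 6 of the 9 fits that left out 1 library. The count of 13 that fell in A20-KO was between 9 and 14 when 1 library was left out. In A20-OE against A20-KO the count of 6 that rose was between 2 (without A20-KO 1) and 10 (without A20-WT 1), and in A20-OE against A20-WT the count of 10 that rose was between 6 (without A20-WT 2) and 11.

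Of 12 regulators of ribosomal protein mRNA, LARP1 and MTOR fell in A20-KO and 0 rose in limma, a share of 16.7% that fell where 11% of all genes did. LARP1, the protein that binds the TOP start, was at 29.4, 36.0 and 35.7 FPKM in A20-WT, 22.9, 24.7 and 19.4 FPKM in A20-KO, and 23.7, 25.1 and 21.7 FPKM in A20-OE, with log2 fold changes of -0.59 (adjusted p = 0.009) and -0.52 (adjusted p = 0.011) against A20-WT. MTOR was at 11.3, 10.9 and 10.4 FPKM in A20-WT, 7.38, 8.21 and 5.55 FPKM in A20-KO, and 5.48, 6.55 and 5.38 FPKM in A20-OE, with log2 fold changes against A20-WT of -0.64 (adjusted p = 0.015) and -0.90 (adjusted p = 0.0018). In A20-OE against A20-WT EIF4EBP2, RPTOR and TSC2 fell as well, which made 5, between 2 (without A20-OE 1) and 7 (without A20-WT 1) when 1 library was left out, and was 41.7% of the list against 15.4% of all genes. Against A20-KO 0 regulators passed in limma in either direction. The list was not split by whether a gene raises or lowers the translation of these mRNAs, so its counts give no direction of regulation. MYC, a transcription factor of ribosome genes, was at 117, 140 and 156 FPKM in A20-WT, 107, 104 and 106 FPKM in A20-KO, and 117, 111 and 131 FPKM in A20-OE, and passed in no comparison.

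**Figure D5:**
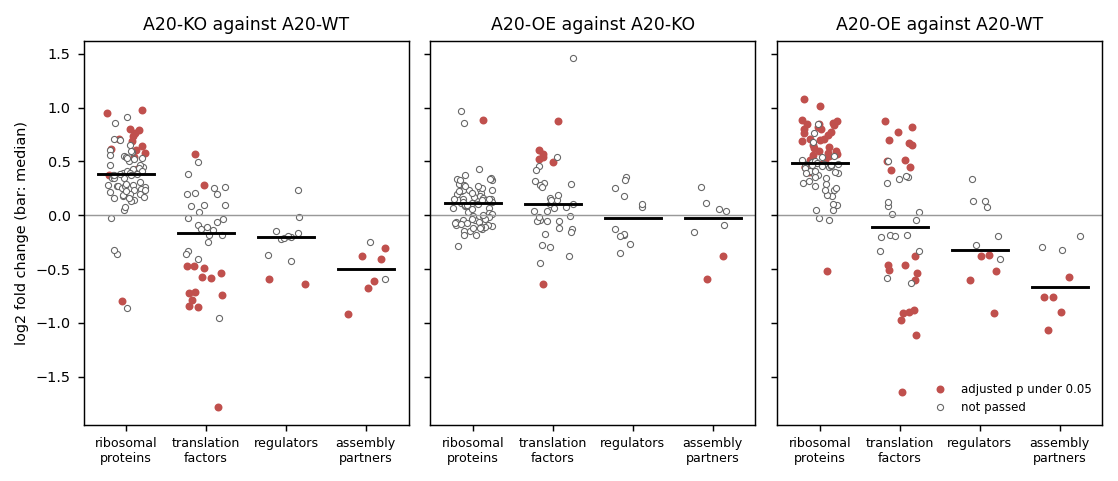
Log2 fold changes of the 77 ribosomal protein genes, 40 translation factors, 12 regulators and 8 assembly partners in each comparison, with medians as bars and genes past an adjusted p of 0.05 filled. The ribosomal protein medians of 0.385 and 0.483 against A20-WT stand above 0, and those of the assembly partners, -0.497 and -0.665, below it.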

How the data were processed

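RNA of 9 HCT116 samples, 3 per group, was sequenced as poly-A selected paired-end libraries. The authors aligned the reads with HISAT2 2.0.5 and counted them with featureCounts 1.5.0-p3 (submitters' processing notes), and deposited FPKM with a length for each gene. How the authors assigned reads shared between genes, and whether strand was used, is not given in the sources used here. All 58735 gene coordinates matched GENCODE 29 on GRCh38. Products of FPKM and length were whole multiples of 1 read for 100% of the values up to 2000 reads (tolerance 0.01), and the deposited FPKM already carried a scaling near median-of-ratios. Recovered reads per library were 23406222 to 24963691. No sample column was left unused.

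Because FPKM are not counts, limma 3.58.1 (R 4.3.3, eBayes with trend) was run on log2(FPKM + 0.1) over genes whose mean FPKM reached 0.1, with 3 groups in 1 fit and Benjamini-Hochberg adjustment over all genes. The method was also run on simulated reads with changes planted in chosen genes. These were drawn without differences between libraries of a group such as those of A20-KO 3 or A20-WT 1, so that run does not cover them. Groups came from the labels, which name no batch. A20-OE was taken as the label of the rescued cells of the study. The members and gene lists were chosen with earlier results of these data known. Members named are the 5 highest and lowest in level and in each fold change, those past the fold threshold, and RPLP0, RPLP1, RPLP2, RPL5, RPL11, RPS6, RPS27A, RPSA, RPL41, RPS4X and RPL22. Further members, such as RPL3, RPS18, RPL12 and RPL9, MYC and the sequence windows were chosen after their values were seen. Other lists name genes past the threshold. Alternatives were other pseudocounts, filters, scalings, variance models, a replicate block, limma-voom on recovered reads, and each library left out. GC content corrections and the joint removal of libraries were added after seeing the data. Values of some genes are not reported here.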

Additional observations from a re-analysis of the deposited data

How the results depend on the processing

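In A20-KO against A20-WT, 16 members passed, with a median log2 fold change of 0.385. The count was 3 with no filter on low values, 10 with no variance trend, 9 with only the 2 groups in the fit, 25 when scaled to reads outside mitochondrial genes, 33 with limma-voom and 0 past a log2 fold change of 1. It was 9, with a median of 0.248, with A20-KO 3 and A20-OE 3 both left out, and 5 with all libraries numbered 3 left out. With 1 library left out it was 7 to 24, and the median 0.248 to 0.443. In A20-OE against A20-KO, 1 member passed. It was 2 at a mean FPKM of at least 1, with limma-voom, with 2 groups in the fit and with the GC content trend removed, and 0 with A20-KO 3 and A20-OE 3 left out or past the fold threshold. With 1 library left out it was 0 to 2, and the median 0.010 to 0.246. In A20-OE against A20-WT, 34 passed. The count was 7 with no filter, 20 with A20-KO 3 and A20-OE 3 left out, 20 with all libraries numbered 3 left out and 2 past the fold threshold. With 1 library left out it was 14 to 40, and the median 0.416 to 0.581. The cause of these differences was not tested. Shares of all genes that passed under these alternatives are not given here, so the counts have no background.

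Same-numbered libraries did not all deviate together. Over all genes tested their residuals correlated at -0.027 to 0.121 in 9 pairs and those of different numbers at -0.131 to 0.072 in 18 pairs. Over genes averaging 1 FPKM or more these ranges were -0.123 to 0.325 and -0.330 to 0.207. On that scale the 3 pairs of libraries numbered 3 gave 0.325 (A20-WT and A20-KO), 0.159 (A20-WT and A20-OE) and 0.313 (A20-KO and A20-OE), while A20-WT 1 correlated best with A20-KO 2. Since not every pair was above 0.1, the numbers were not taken to pair libraries. With the replicate block the counts were 36, 2 and 49 in the order above. With the block and the GC content trend removed they were 42 and 2 in the first and second comparison, with the gene length trend removed 31 and 3, and with median-of-ratios scaling 36 and 2.

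Over single members and alternatives, 5680 values kept their direction and side of the threshold or moved by less than 1 SE, 282 came to pass, 263 no longer passed and 12 moved by more, none of these past the threshold. No passing value changed sign under the alternatives run. The libraries number 3 per group, and members under 10 FPKM rest on at most 735 reads per library.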
